A study of Salix linearistipularis with 24 samples.

Results

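The genes described here are the WRKY33 transcription factor genes measured in roots of the willow *Salix linearistipularis*. They were chosen by identifier, without use of their levels but with earlier results of these data known. These are cluster CL3639, an assembled group of 38 contigs, and the single unigene Unigene26361, which together took 39 of the 253209 rows and 2 of the 139844 genes of the expression table. A contig is an assembled transcript sequence, and a gene is either a cluster with its contigs summed or a single unigene. In the annotation tables of the study, both genes had *Arabidopsis thaliana* WRKY33 as their Swiss-Prot match and a WRKY DNA-binding domain. The nearest protein of *Populus trichocarpa* was a probable WRKY33 for CL3639 and WRKY24 for Unigene26361.

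WRKY proteins are plant transcription factors that bind W-box elements in promoters. In *Arabidopsis*, WRKY33 is released and phosphorylated by MAP kinase cascades after pathogen signals such as chitin, binds VQ motif proteins, activates genes of camalexin synthesis and ethylene formation, and its loss makes plants more susceptible to necrotrophic fungi and to salt. Its transcript is known there to accumulate in roots within hours of NaCl.

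The series holds 24 root RNA libraries in 8 groups of 3. Hydroponic female and male cuttings, rooted from annual shoots of wild trees, were kept in water (control, 0 mM NaCl) or in 100 mM NaCl for 6, 12, or 24 h. No agent or allele other than NaCl was used, the labels and methods do not state the hour of the control harvest, and control libraries of each sex served all 3 times. The labels describe a single male and a single female individual as the source of all cuttings, whereas the paper describes trees of several populations and independent experiments. If the labels hold, a difference between sexes cannot be told apart from a difference between 2 plants. The paper does not say which tree gave each library. On its description, a difference between NaCl and control or between times may include one between trees, which was not tested. P-values measure only the spread between libraries, which may be technical.

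Values were FPKM (fragments scaled to the length of the unigene and to the mapped fragments of the library), as deposited. Totals lay between 663314 and 778064 FPKM per library. Median-ratio factors, from genes above 0 in every library, were less even, from 0.644 in a male 24 h library to 1.51 in a male control library. They followed the groups and were not applied in the main fit, so ratios between groups depend on that choice. Without read numbers, depth is unknown and no counting interval was computed. The table pairs rows with no gene names, so the root label was not checked against marker genes. Libraries of 7 groups correlated best with a library of their own group, at r of 0.966 to 0.977 across genes, on the log2 scale. The male 6 h libraries stood apart: they correlated with each other at 0.739 to 0.787, and the nearest library of replicates 1 and 2 was a male 24 h library (r = 0.790 and 0.814). Responses at male 6 h are therefore also given without each of its libraries in turn, an alternative that for contigs and defence genes was added after the data were seen. In whole roots, a change of the RNA per cell and a change of the share of the cells that express a gene cannot be told apart.

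CL3639 was present in every library and rose in roots of both sexes at each time of NaCl. In female control roots, the level was 66.6, 62.0, and 66.2 FPKM in the 3 libraries. After 6 h of NaCl, it was 1393, 1368, and 1400.2 FPKM. The lowest NaCl-treated library lay far above the highest control library, and the groups did not overlap. After 12 h, the level was 999.95, 982, and 975 FPKM, below every library of 6 h. After 24 h, it was 1740.4, 1702, and 1742 FPKM, which was the highest level of the gene in females.

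The mean of 64.9 ± 2.57 FPKM (SD, n = 3) in female control was followed by 1387 ± 16.7 after 6 h, 986 ± 12.9 after 12 h, and 1728 ± 22.7 after 24 h. These were 21.4-, 15.2-, and 26.6-fold increases. On the log2(FPKM + 0.5) scale, the ratio to control was 4.41 at 6 h (SE, the standard error, 0.25, limma adjusted p = 7.79e-12), 3.91 at 12 h (adjusted p = 8.37e-11), and 4.72 at 24 h (adjusted p = 3.34e-12). A call required a change of 1 or more on the log2 scale with an adjusted p no higher than 0.05, and all 3 responses met it. Of the 95202 tested genes, 50.5% (6 h), 22.2% (12 h), and 31.6% (24 h) met it too, so that a call alone was common. The size was not: 890 of the tested genes had a higher log2 ratio than CL3639 at 6 h, 315 at 12 h, and 289 at 24 h. The study lists both WRKY33 genes among salt-responsive genes chosen on these same libraries, so their response to NaCl is not independent evidence of its direction.

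By mean level, CL3639 moved from rank 1863 among 139844 genes in female control to ranks 15, 37, and 14 at 6, 12, and 24 h. Ranks here and below set the sum of 38 contigs of CL3639 beside genes of which 119091 are single unigenes. The share of CL3639 in the total FPKM was 0.00914% in control roots and 0.256% at 24 h. The step down from 6 to 12 h did not pass the test (log2 ratio -0.49, 95% interval -1.02 to 0.03, limma adjusted p = 0.114), although all 3 libraries of 12 h lay below those of 6 h. That step was also below the required size. The intervals rest on a spread pooled over all groups, which male 6 h (SD 1099 FPKM) widened. The SD within female 6 and 12 h was only 16.7 and 12.9 FPKM. The step from 12 to 24 h was 0.81 on the log2 scale (95% interval 0.28 to 1.34, limma adjusted p = 0.0282), below the required size. Over all genes, 39.8% were called between 6 and 12 h and 11.6% between 12 and 24 h.

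In male control roots, CL3639 was at 30.6, 29.0, and 29.1 FPKM. Every male control library lay below every female control library. After 6 h of NaCl, the male libraries were at 2835, 879, and 989 FPKM. Replicate 1 was far above the others, and all 3 lay far above control. After 12 h, the level was 2079, 2053, and 2101 FPKM, and after 24 h it was 1757, 1779, and 1808 FPKM. The libraries of these later times lay close to each other, and each library of 12 h was above each library of 24 h.

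The mean rose from 29.6 ± 0.895 FPKM (SD, n = 3) to 2078 ± 24.2 at 12 h and 1781 ± 25.8 at 24 h, which were 70.2- and 60.2-fold increases. At 6 h, the mean was 1568 ± 1099 FPKM, and the libraries were 95.8-, 29.7-, and 33.4-fold above the control mean. The log2 ratio was 5.49 at 6 h (SE 0.25, limma adjusted p = 2.17e-12), 6.11 at 12 h (adjusted p = 1.19e-13), and 5.89 at 24 h (adjusted p = 2.90e-13). All 3 were called, where 30.3% of all tested genes were called at 6 h, 49.9% at 12 h, and 39.9% at 24 h. Between 78 genes (6 h) and 309 genes (12 h) had a higher log2 ratio than CL3639. Without replicate 1, 2, or 3 of male 6 h, the ratio at 6 h was 4.96, 5.80, and 5.71. The pooled spread of the model understates that of male 6 h and, for CL3639, overstates that of every other group.

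CL3639 took rank 5253 in male control roots and ranks 9, 11, and 22 at 6, 12, and 24 h. It held 0.286% of the total FPKM at 12 h. Neither step between times passed the test: the log2 ratio of 12 to 6 h was 0.62 (limma adjusted p = 0.0538), but 1.16 and called without replicate 1 of male 6 h, and that of 24 to 12 h was -0.22 (95% interval -0.75 to 0.30). Of all tested genes, 32.6% and 35.1% were called in these steps.

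**Figure D1:**
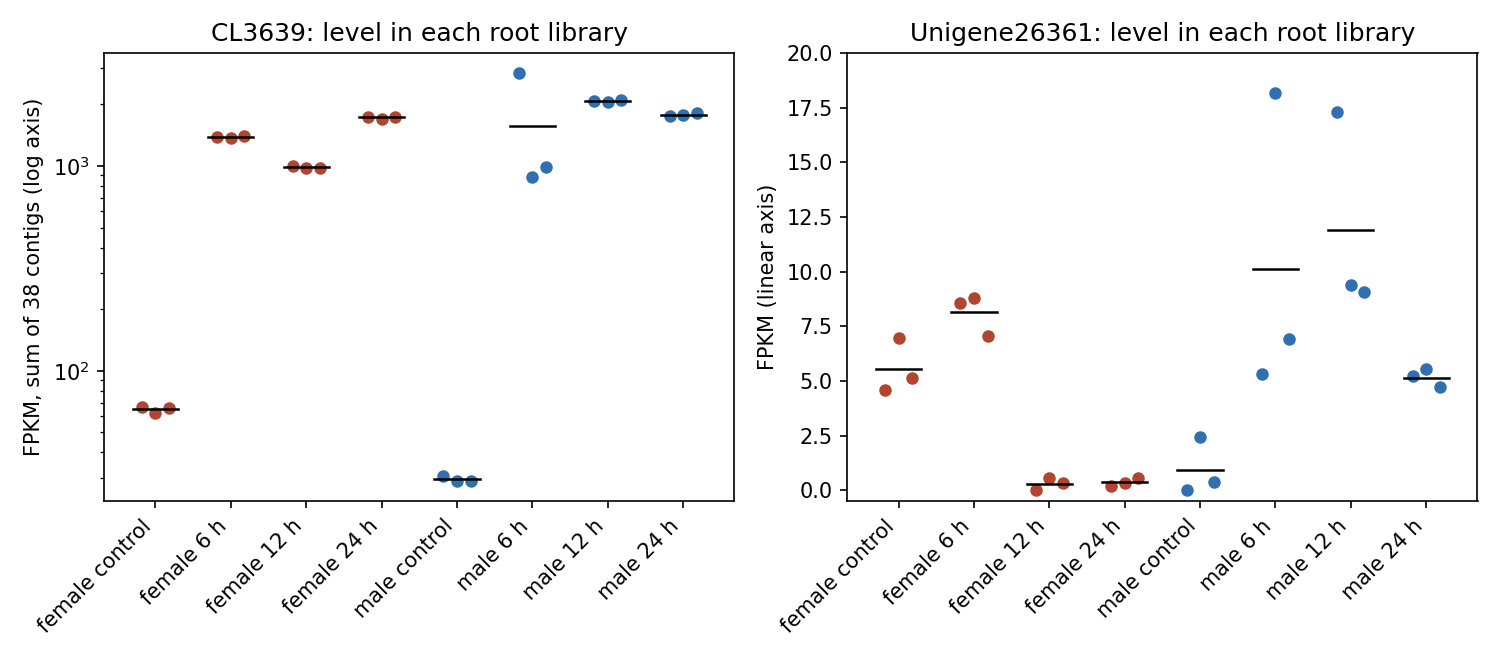
Level of CL3639 (left, sum of 38 contigs, log axis) and Unigene26361 (right, linear axis) in FPKM in each of the 24 root libraries, with 1 point per library and a bar at the group mean, female in red and male in blue. CL3639 lies at 29.0 to 66.6 FPKM in the control libraries and at 879 FPKM or more in every NaCl-treated library, while Unigene26361 lies at 0.55 FPKM or less in female roots of 12 and 24 h and at 4.74 FPKM or more in every NaCl-treated male library.

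Unigene26361 was a gene of low level, and its response differed in direction between the sexes at 12 and 24 h. In female control roots, it was at 4.58, 6.96, and 5.14 FPKM. After 6 h of NaCl, the female libraries were at 8.58, 8.80, and 7.06 FPKM. These lay just above the control libraries. After 12 h, they were at 0, 0.55, and 0.34 FPKM, and after 24 h at 0.20, 0.36, and 0.55 FPKM. No female library of these later times came near a control library.

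In male control roots, Unigene26361 was listed at 0, 2.45, and 0.40 FPKM. After 6 h, the male libraries were at 5.34, 18.2, and 6.91 FPKM, with replicate 2 the highest library of the gene. They were at 17.3, 9.41, and 9.07 FPKM after 12 h and at 5.21, 5.53, and 4.74 FPKM after 24 h. Every NaCl-treated male library was above every male control library, and replicate 1 of male 6 h, the highest for CL3639, was the lowest of its group for Unigene26361.

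In female roots, the log2 ratio to control was 0.53 at 6 h (standard error 0.49, 95% interval -0.49 to 1.55, limma adjusted p = 0.378). At 12 h, Unigene26361 fell by 2.97 on the log2 scale (limma adjusted p = 5.94e-05), from a mean of 5.56 ± 1.24 to 0.297 ± 0.278 FPKM (SD, n = 3). At 24 h, it fell by 2.80 (adjusted p = 8.58e-05), to 0.370 ± 0.175 FPKM. Called lower in these comparisons were 12.7% (12 h) and 22.6% (24 h) of the genes tested. The drop came between 6 and 12 h, where the log2 ratio of 12 to 6 h was -3.50 (limma adjusted p = 4.80e-06).

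In male roots, Unigene26361 rose by 3.08 at 6 h (SE 0.49, limma adjusted p = 4.16e-05), 3.44 at 12 h (adjusted p = 4.27e-06), and 2.36 at 24 h (adjusted p = 3.80e-04), all on the log2 scale. The control mean was 0.95 ± 1.31 FPKM, and the means under NaCl were 10.1 ± 7.0 (6 h), 11.9 ± 4.66 (12 h), and 5.16 ± 0.397 (24 h; SD, n = 3). Called higher in these comparisons were 13.2%, 25.4%, and 12.1% of all tested genes. Without replicate 1, 2, or 3 of male 6 h, the ratio at 6 h was 3.42, 2.58, and 3.25. Steps between the male times were 0.35 from 6 to 12 h (limma adjusted p = 0.623) and -1.08 from 12 to 24 h (adjusted p = 0.0853). With values this close to the pseudocount of 0.5, log2 ratios understate the change and depend on the pseudocount: with 0.1, the female ratio was -4.19 at 12 h and the male ratio 4.51.

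The responses of both genes were lower in female than in male roots at each time, on the log2 scale. For CL3639, the female response minus the male response was -1.08 at 6 h (SE 0.36, limma adjusted p = 0.0154), -2.20 at 12 h (adjusted p = 3.51e-05), and -1.16 at 24 h (adjusted p = 0.0125). All 3 were called, but so were 47.3%, 48.5%, and 36.5% of all tested genes in these comparisons, and CL3639 was at percentile 21.4, 13.9, and 19.6 of the signed difference among them. The difference at 6 h was -0.55 without replicate 1 of male 6 h, below the required size, and -1.39 and -1.31 without replicates 2 and 3. Where only the 4 groups concerned entered the fit, its adjusted p was 0.0864 from limma.

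The difference of CL3639 included the control levels, which differed between sexes, and the level under NaCl did not follow a single order of the sexes. Female control roots were 2.19-fold above male control roots (log2 ratio 1.12, SE 0.25, limma adjusted p = 9.13e-04), where 38.1% of tested genes were called between the sexes. At 6 h, where 33.5% were called, the log2 ratio of female to male was 0.04 (95% interval -0.49 to 0.56) and changed sign with the replicate left out, from -0.27 to 0.57. At 12 h, CL3639 was 2.11-fold higher in male roots (log2 ratio -1.08, limma adjusted p = 9.98e-04), where 49.8% were called. At 24 h, the libraries of the sexes did not overlap, but the means differed by only 1.03-fold (log2 ratio -0.04, 95% interval -0.57 to 0.48), where 21.8% were called.

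For Unigene26361, the female response minus the male response was -2.56 at 6 h (SE 0.69, limma adjusted p = 0.00425), -6.41 at 12 h (adjusted p = 2.31e-07), and -5.16 at 24 h (adjusted p = 5.49e-06). The gene was at percentile 6.25 at 6 h, 0.0641 at 12 h, and 0.329 at 24 h of all tested genes. Without replicate 1, 2, or 3 of male 6 h, the difference at 6 h was -2.89, -2.06, and -2.72. In control roots, females had the higher level (5.85-fold, log2 ratio 2.44, limma adjusted p = 3.06e-04). Under NaCl, the order was the opposite at 12 h (40.2-fold higher in males, log2 ratio -3.97, adjusted p = 8.44e-07) and 24 h (13.9-fold, log2 ratio -2.72, adjusted p = 1.99e-04), whereas at 6 h the libraries overlapped (log2 ratio -0.11, 95% interval -1.13 to 0.91).

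Actin, the reference gene of the study (*SlActin*, CL19537), was not steady in these libraries, from 336 to 377 FPKM in female control roots to 9.72 to 10.3 FPKM in male roots at 24 h. Relative to it, CL3639 rose in both sexes at each time, but its difference between the responses was 0.76 at 12 h and 1.09 at 24 h, the opposite sign, and that of Unigene26361 was still negative (-3.94 and -4.15). Relative to *SlActin*, Unigene26361 in female roots had a ratio to control of -0.77 at 12 h and 0.34 at 24 h, neither of which passed the test. Whether actin or the FPKM scale is the better base was not tested.

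**Figure D2:**
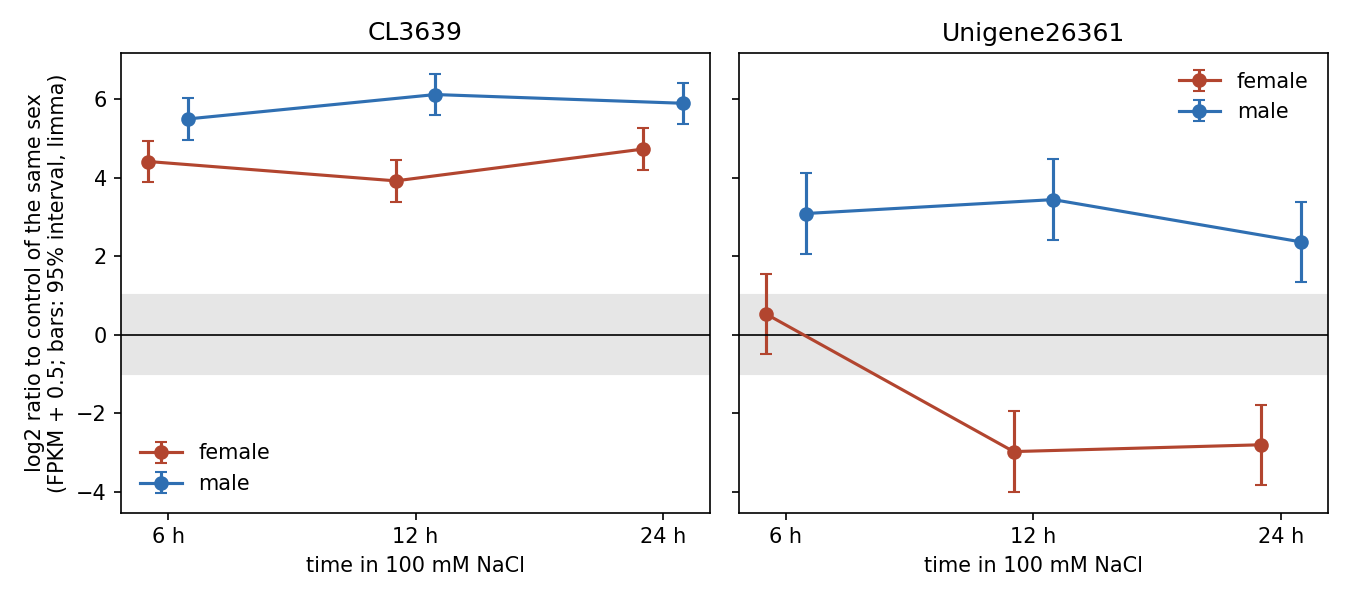
Log2 ratio of NaCl-treated to control roots of the same sex, on the log2(FPKM + 0.5) scale, by time in 100 mM NaCl for CL3639 (left) and Unigene26361 (right), female in red and male in blue, with 95% intervals from limma as bars and the range under the required size in grey. All 6 ratios of CL3639 lie between 3.91 and 6.11, and the ratios of Unigene26361 lie on opposite sides of 0 at 12 h (-2.97 and 3.44) and 24 h (-2.80 and 2.36).

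By mean FPKM, CL3639 was highest in male roots at 12 h, followed by male 24 h, female 24 h, male 6 h, female 6 h, female 12 h, female control, and male control. Of the 7 steps between neighbours, those from female 12 h to female control and from female control to male control were called. The 5 steps among NaCl-treated groups were below the required size and were not called. Among these, libraries overlapped only in the steps that include male 6 h. Unigene26361 was highest in male roots at 12 h, followed by male 6 h, female 6 h, female control, male 24 h, male control, female 24 h, and female 12 h. The only called step between neighbours was that from male 24 h to male control. The log2 group means of the genes correlated at r = 0.269 over the 8 groups, which is a description with no test. The CL3639 sum exceeded Unigene26361 in each of the 24 libraries. FPKM is scaled to length, but a sum over 38 contigs may count 1 transcript more than once, so the size of that difference was not tested. Reads of similar genes may have been split between them, and so may reads of contigs of 1 cluster.

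The cluster sum rose in each comparison with control, while its contigs moved apart. Of the 38 contigs, 33 were above 0 in libraries of both sexes, 1 in female libraries alone, and 4 in male libraries alone. Only 4 were above 0 in all 24 libraries. For comparison, a cluster held a median of 3 contigs. Contigs were named here where they held at least 5% of the cluster in at least 1 group mean (13 contigs), and the 25 others together are shown as 1 class in the plot of shares. No sequence of these contigs was read here, so whether they are alleles, splice forms, or genes of a family was not tested.

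The leading contig changed with the group. In female control roots, contig 6 led with 23.7% of the cluster. At 6 h, contig 11 led with 22.3%, and contig 32 led at 12 and 24 h with 23.8% and 23.3%. In male roots, contig 38 led in control (26.2%) and at 12 h (26.7%), and contig 32 at 24 h (28.6%). At 6 h, contig 38 led in male replicate 1 (27.6%), and contig 32 in replicates 2 (32.8%) and 3 (43.8%). The 3 libraries of each other group had the same leading contig.

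Contig 32 was the most abundant contig over all libraries. In female roots, it was at 7.84, 8.94, and 8.34 FPKM in control and at 0, 0.45, and 0 FPKM after 6 h. It then stood at 233, 237, and 234 FPKM after 12 h and at 388, 391, and 428 FPKM after 24 h. The female 6 h libraries thus lay below control, while the cluster sum rose. The log2 ratios to control were -3.84 at 6 h (SE 0.23, limma adjusted p = 1.82e-11), 4.73 at 12 h, and 5.51 at 24 h. In male roots, contig 32 was at 6.13, 5.10, and 7.16 FPKM in control, and at 605, 289, and 433 FPKM after 6 h. It was at 281, 269, and 292 FPKM after 12 h and at 511, 504, and 511 FPKM after 24 h. All 9 NaCl-treated male libraries lay above control (log2 ratios 6.01, 5.42, and 6.28). The response at 6 h was far lower in females (female response minus male response -9.85, limma adjusted p = 1.77e-14). Without each male 6 h library in turn, that difference was -10.12 to -9.59, and the male ratio at 6 h 5.75 to 6.28.

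Contig 38 showed another order. In female roots, it was at 1.57, 0.41, and 0.46 FPKM in control and at 205, 197, and 195 FPKM after 6 h (log2 ratio 7.36, SE 0.91, limma adjusted p = 6.83e-07). After 12 h, it was back at 5.26, 3.06, and 8.02 FPKM, and after 24 h at 6.03, 4.19, and 2.71 FPKM. These last values did not differ from control by the test (log2 ratios 2.20 and 1.92, adjusted p = 0.0874 and 0.106). In male control roots, contig 38 was at 6.61, 9.19, and 7.46 FPKM. It stood at 781, 8.53, and 76.3 FPKM in the male 6 h libraries, a spread that reached from the control level to the highest value of any contig. The male ratio at 6 h was 3.32 (limma adjusted p = 0.00633), and 1.69, 4.90, and 3.36 without replicate 1, 2, or 3, each called. At 12 h it was at 548, 553, and 566 FPKM (log2 ratio 6.09, limma adjusted p = 7.64e-06), and at 24 h at 9.82, 8.41, and 15.6 FPKM (0.48, adjusted p = 0.785).

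Contigs 3, 16, and 30 shared the low female level of contig 32 at 6 h. Contig 3 was at 6.38, 6.06, and 5.29 FPKM in female control roots, at 0, 0.20, and 0 after 6 h, and at 132, 127, and 123 after 12 h. Contig 16 was at 4.90, 4.89, and 5.01 FPKM in control and at 0, 0.27, and 0.15 after 6 h, and contig 30 at 1.95, 1.18, and 1.85 and at 0, 0, and 0.60. All 3 were lower at 6 h (log2 ratios -3.51, -3.11, and -1.71) and higher at 12 h (4.32, 2.23, and 4.53) and 24 h (5.06, 2.84, and 5.44). In male roots, contigs 16 and 30 were higher at 12 h (3.01 and 4.30) and were not called at 6 and 24 h. Contig 3, with 0 FPKM listed for each male control library, was likewise highest at 12 h (65.5 to 73.8 FPKM). It was at 0.23, 0, and 6.49 FPKM in the male 6 h libraries and at 0, 0, and 0.24 FPKM in those of 24 h.

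Contigs 11 and 13 were high in female roots under NaCl and near 0 in male roots of 12 h. Contig 11 was at 4.75, 4.06, and 4.70 FPKM in female control roots and at 311, 309, and 306 FPKM after 6 h. It was at 134, 133, and 139.9 FPKM after 12 h and at 235, 232, and 234 FPKM after 24 h, above every control library. In males, it was at 0.14, 0.30, and 0 FPKM in control and at 0.10, 0, and 0 FPKM after 12 h, yet at 152, 153, and 149.8 FPKM after 24 h. At 6 h, male replicate 2 stood at 93.8 FPKM, and the other replicates at 0.38 and 0, and contig 11 was not called there with all libraries but was without replicate 1 or 3. Contig 13 was at 144, 138, and 143 FPKM in female roots at 6 h, at no more than 0.20 FPKM in male roots at 12 h, and at 106 to 113 FPKM in male roots at 24 h. The female response minus the male response at 12 h was 5.03 for contig 11 and 4.16 for contig 13, against -2.20 for the cluster.

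Contig 23 was listed at 0 in all 12 female libraries. In male roots, it was at 156, 159, and 165 FPKM at 24 h, at 0.50, 75.2, and 7.23 FPKM at 6 h, and at no more than 0.10 FPKM in control and 12 h. Contig 19, by contrast, was found in both sexes: it was at 3.35, 2.69, and 4.92 FPKM in female control roots, at 28.3, 23.1, and 33.2 after 6 h (log2 ratio 2.81), and in males at no more than 0.13 in control and at 45.2, 40.4, and 44.1 at 24 h (6.30). Contig 7 had 0 FPKM listed for each female control library and 201, 184, and 199.8 FPKM after 6 h, so no fold is given. In male control roots, it was at 4.65, 5.50, and 4.41 FPKM and rose to 182, 193, and 189.7 at 12 h (log2 ratio 5.15) and to 232, 261, and 255 at 24 h (5.55). At 6 h, the male libraries were at 407, 132, and 1.58 FPKM, the last below every male control library. The ratio there was 3.18 (limma adjusted p = 0.0247), but 1.64 (adjusted p = 0.168) without replicate 1, 2.45 (adjusted p = 0.103) without replicate 2, and 5.44 without replicate 3.

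Of the named contigs, 6, 7, 17, and 31 were called higher in each comparison with control, contig 7 at male 6 h only as given above. Contig 17 had log2 ratios of 3.10, 2.56, and 2.98 in females and 5.48, 5.31, and 5.19 in males at 6, 12, and 24 h, all called. Its female response was below the male response at each time (-2.39, -2.75, and -2.22, all called). Contig 31 had ratios of 5.49, 3.35, and 4.76 in females and 5.47, 7.32, and 6.62 in males, and contig 6 had 3.58, 3.08, and 3.80 in females and 4.22, 5.18, and 3.12 in males. Contig 6 is less even than its ratios, since male 6 h replicate 2 was at 6.58 FPKM, closer to the male control libraries (2.98 to 5.07 FPKM) than to replicates 1 and 3 (481 and 171 FPKM). Without each male 6 h library in turn, the male ratios at 6 h were 2.96 to 6.00 (contig 6), 5.09 to 5.78 (contig 17), and 4.97 to 5.80 (contig 31), all called, and the response difference of contig 17 was -2.68 to -1.99. The ratios of 1 sex share their control libraries.

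Over all contigs, 36 of the 38 reached 1 FPKM in at least 3 libraries and were tested. Against control, 19 were called higher and 5 lower in females at 6 h, where 27.8% of all tested rows were called higher and 21.9% lower. For the 12 h libraries of females, 17 were higher (9.24% over all rows) and 0 lower (9.31%), and for those of 24 h, 20 were higher (9.84%) and 0 lower (18.2%). In males, 20 were higher at 6 h (13.3% over all rows), 24 at 12 h (24.2%), and 19 at 24 h (15.2%), and 0 were lower at each time (18.3%, 27.3%, and 29.7% over all rows). Without replicate 1, 2, or 3 of male 6 h, 19, 21, and 19 were higher and 1, 0, and 0 lower at 6 h. Of all rows, 17.6%, 14.8%, and 14.2% were then higher and 19.4%, 19.8%, and 17.7% lower. The contig counts describe the cluster only. A contig that passed the filter through a single group had to differ from the others. For the female response against the male response, 5 contigs were called higher and 10 lower for the 6 h groups, 2 and 15 for 12 h, and 6 and 8 for 24 h, beside 28.2% and 19.5%, 23.4% and 23.8%, and 21.5% and 17.4% of all rows. For 6 h, 7 were higher and 11 to 13 lower without each male 6 h library in turn. The shares of all rows were then 28.7% to 30.6% higher and 19.8% to 22.5% lower.

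**Figure D3:**
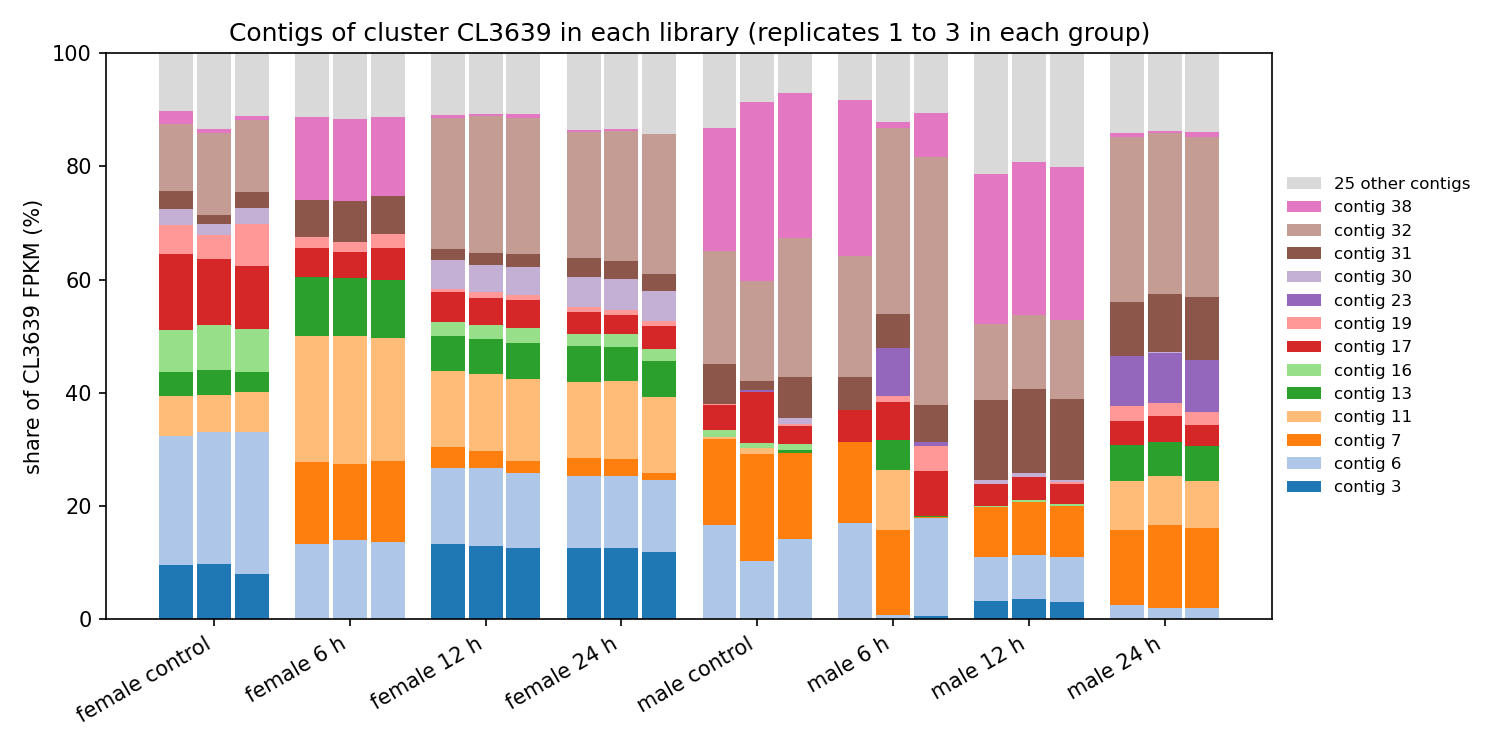
Share of the CL3639 FPKM (%) held by each of 13 named contigs and by the 25 other contigs together, in each of the 24 libraries, with replicates 1 to 3 side by side in each group. Contig 32 holds 11.8% to 14.4% in the female control libraries, almost nothing at 6 h, and 22.3% to 24.6% at 12 and 24 h, and the largest class of the male 6 h libraries is contig 38 in replicate 1 and contig 32 in replicates 2 and 3.

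The shares of the contigs allow libraries to be compared without the level of the gene. The shared composition of 2 libraries was the sum over contigs of the smaller share, 100% where the shares are equal. Within the 7 groups other than male 6 h, it was 75.8% to 98.2% for CL3639, where the median over every cluster that reached 10 FPKM in each library of the pair was 92.6% to 93.8%. The lowest of these values for CL3639 came from male control (75.8% to 86.7%), and every other of these groups was at 89.9% or more. Female 12 h and 24 h libraries shared 93.4% to 94.6%, close to the values within a group. Female control and 6 h libraries shared 38.2% to 42.1%, while the median of all clusters was 64.3% to 64.8%. Female control and 12 h libraries shared 63.9% to 69.1%, against a median of 89.3% to 89.6%. The low similarity of female 6 h to the other female groups was thus found for CL3639 and for the median cluster. Male groups were similarly unlike each other over all clusters. The median was 65.2% to 65.7% for male control and 12 h libraries, and 61.6% to 62.1% for male control and 24 h. For male 12 and 24 h it was 62.8% to 63.0%, and for female and male control 65.4% to 65.9%. CL3639 was at 67.6% to 73.7%, 43.1% to 55.2%, 45.8% to 48.8%, and 39.2% to 45.4% in these comparisons. The part of such differences between groups in the contig results above was not tested.

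The male 6 h libraries shared 50.4% to 60.0% of the CL3639 composition with each other. Replicate 1 shared 82.8% to 89.8% with the male control libraries, where the median of all clusters was 85.9% to 86.1%, although its level of CL3639 was the highest of all libraries and that of male control the lowest. Replicate 2 shared 85.8% to 87.9% with male 24 h libraries (median of all clusters 83.8% to 84.6%). Replicate 3 shared at most 58.5% with any library of another group. What sets these libraries apart was not tested, and leaving each out in turn changed no call of the response of CL3639 or Unigene26361 at 6 h.

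**Figure D4:**
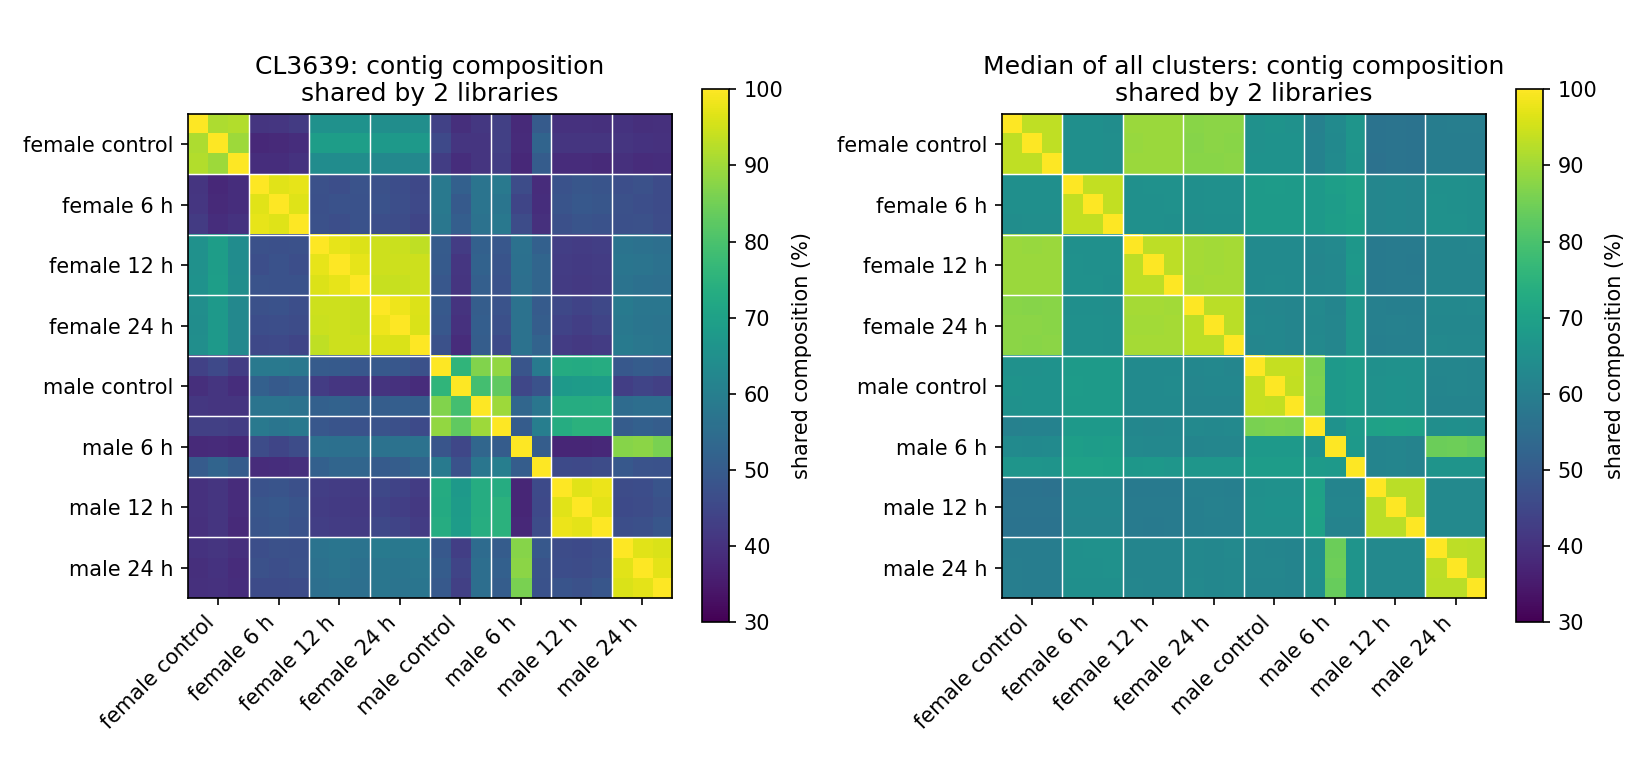
Shared contig composition (%, colour) of each pair of the 24 libraries for CL3639 (left) and as the median over all clusters (right), with white lines between the 8 groups. Pairs within a group are light except in male 6 h and, to a lesser degree and for CL3639 only, in male control (75.8% to 86.7%). In male 6 h, replicate 1 resembles male control (82.8% to 89.8% for CL3639) and replicate 2 resembles male 24 h (85.8% to 87.9%).

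Over the 8 group means on the log2 scale, 343 of 47524 genes with a mean of at least 1 FPKM correlated with CL3639 at more than 0.95. With so many and only 8 means, such values are a description. The highest was CL6227 (r = 0.997), which has no name in the sources used here. Of 128 annotated genes of the study's tables of salt-responsive and reactive oxygen genes, the nearest were CL2555 (r = 0.978), matched to the transcription factor MYB13, CL1787 (r = 0.970), matched to the hexose carrier sugar transport protein 13, and Unigene43889 (r = 0.965), matched to the MYB-related transcription factor KUA1. They were also the 3 nearest without the mean of male 6 h, whereas the highest of all genes was then CL19216 (r = 0.999).

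For Unigene26361, a single gene exceeded 0.95 (Unigene68624, r = 0.960, with no name). Without the mean of male 6 h, 3 genes did, and CL4513 was the highest (r = 0.969). The nearest annotated genes were Unigene111087 (r = 0.759), matched to the calcium- and phospholipid-binding protein annexin D5, Unigene29404 (r = 0.691), matched to a small heat shock protein of class I, and Unigene21407 (r = 0.680), matched to cytosolic ascorbate peroxidase, which removes hydrogen peroxide. None of these was as close as the annotated genes were to CL3639. Unigene111087 was itself of low level, with group means of 0.413 to 4.58 FPKM. Without the mean of male 6 h, Unigene9983 (r = 0.687) took the place of Unigene21407.

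In the annotation, the WRKY33 genes belong to the MAPK signalling and plant-pathogen interaction pathways. A list of 10 other genes was taken from the study's salt-responsive genes with a term for these pathways, defence, chitin, chitinase, or a VQ protein. The study chose that table on these libraries, so the list is not independent evidence of a response. In female roots of 6 h, 6 were higher and 2 lower. At 12 h these numbers were 3 and 2, and at 24 h 2 and 2. In male roots of 6 h, 3 were higher and 2 lower, at 12 h 4 and 2, and at 24 h 4 and 3. With median-ratio scaling, 5 were higher in females at 24 h and 1 lower in males at 6 h. Of 92855 genes tested with that scaling, 11494 were higher in females at 24 h and 8817 lower in males at 6 h. Without replicate 1, 2, or 3 of male 6 h, 3 were higher each time and 1, 3, and 2 lower. The shares of all tested genes were then 17.0%, 15.0%, and 13.6% higher and 17.2%, 18.9%, and 16.4% lower. With all libraries and no scaling, 29.6%, 9.47%, and 9.01% of all tested genes were higher in females and 13.2%, 25.4%, and 12.1% in males. Lower were 20.9%, 12.7%, and 22.6% in females and 17.2%, 24.5%, and 27.8% in males. In the female comparisons the list had a median log2 ratio of 1.51, 0.29, and 0.45, in the male comparisons one of 0.18, 0.44, and 0.49. That of all tested genes lay between -0.30 and 0.14.

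The MYB13 gene CL2555 was at 13.6, 11.7, and 11.1 FPKM in female control roots and at 409.6, 400.4, and 416 FPKM after 6 h. It was the gene of the list with a called rise in each of the 6 comparisons, with log2 ratios of 5.02, 3.66, and 4.82 in females and 4.42, 5.94, and 4.82 in males. CL12613, matched to VQ motif-containing protein 22, of a family whose members bind WRKY33 in *Arabidopsis*, was at 83.0, 87.9, and 85.9 FPKM in female control and at 329.9, 334, and 333 FPKM after 6 h. It was higher in females at each time (1.95, 1.35, and 1.44) and in males at 12 and 24 h (1.96 and 1.98), with a ratio of 0.99 at male 6 h that was 0.60, 1.14, and 1.24 without replicate 1, 2, or 3, the last 2 called. That of CL2555 was 3.84 to 4.98 and called each time.

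The genes for hevamine, a plant chitinase and lysozyme, differed between each other. CL8158 was higher in males (1.63, 2.12, and 1.04) and below the required size in females (0.80, 0.43, and 0.65). Unigene9927 was at 0.36, 0.22, and 0.31 FPKM in female control roots, at 29.2, 29.6, and 27.8 after 6 h, and at 0.52 or less after 12 and 24 h. In males, it was at 0.37 to 0.61 FPKM in control, at 0.21, 16.1, and 8.11 after 6 h, at 0.52 to 1.08 after 12 h, and at 15.7, 14.8, and 13.8 after 24 h. The male 24 h libraries lay close to each other, whereas male 6 h reached from the control level to above that of 24 h. The ratio of Unigene9927 at male 6 h (2.26, called) was 3.62 without replicate 1 and no longer called without replicate 2 or 3 (1.34 and 1.82, limma adjusted p = 0.0690 and 0.0504).

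CL1315, matched to the osmotic stress kinase SAPK1 of rice, was higher in females at 6 h (2.27) and lower in males at 24 h (-2.37). CL5193, matched to the GTP-binding protein BPG2, was higher in females at 6 h (1.40) and males at 12 h (1.62). CL4774, a glutathione S-transferase, was higher in females at 6 h (1.63) and 12 h (1.09). CL13878, matched to the chitin-binding pro-hevein, was lower in females at 6 h (-1.15) and in males at 6 h (-1.03) and 12 h (-2.33), with male 6 h libraries at 69.8, 349.6, and 396 FPKM and a male control range of 418 to 454 FPKM. The ratio of CL13878 at male 6 h was -0.23 without replicate 1, below the required size, and -1.39 and -1.48 without replicates 2 and 3. CL13859, matched to the ubiquitin ligase XERICO, was lower in females at 12 and 24 h (-1.51 and -1.52) and in males at 24 h (-2.34). Unigene69581, matched to soluble pyrophosphatase 6, was called lower in all 6 comparisons, from 3.65 to 7.57 FPKM in the control libraries to 1.17 or less under NaCl, and was listed at 0 in all libraries of 24 h.

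The female response minus the male response was called higher for 4 and lower for 0 of the 10 genes by 6 h, for 2 and 4 by 12 h, and for 2 and 1 by 24 h, beside 28.6% and 18.7%, 20.9% and 27.6%, and 18.7% and 17.8% of all tested genes. Without replicate 1, 2, or 3 of male 6 h, 6, 4, and 4 were higher and 0, 1, and 0 lower at 6 h. The shares of all tested genes were then 28.7%, 30.9%, and 29.4% higher and 21.2%, 19.5%, and 18.7% lower. Both WRKY33 genes were called lower at 6, 12, and 24 h, CL3639 at 6 h not without replicate 1.

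**Figure D5:**
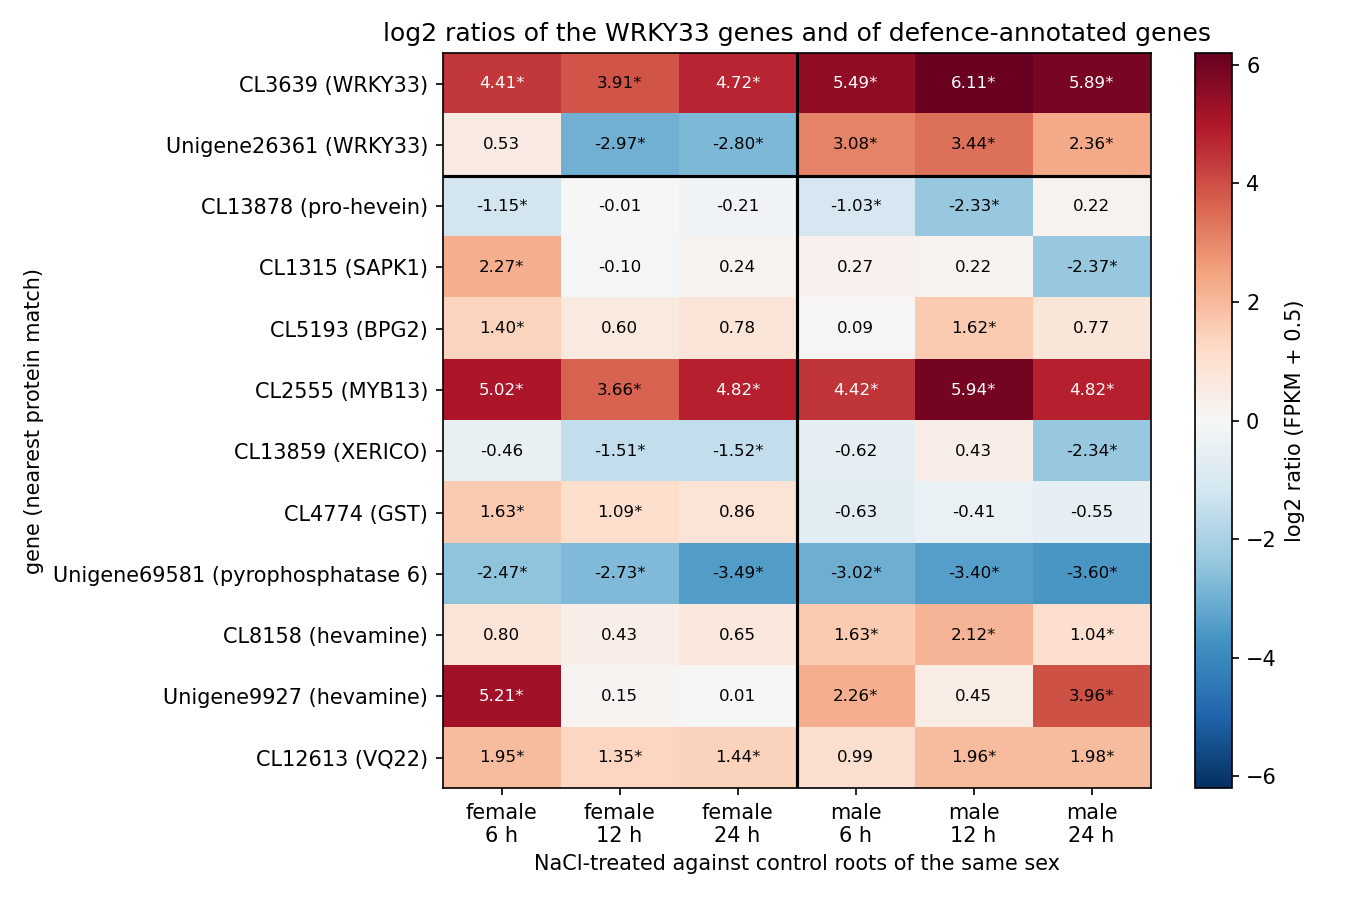
Log2 ratio of NaCl-treated to control roots of the same sex (colour and printed value, log2(FPKM + 0.5) scale) for the WRKY33 genes and 10 defence-annotated genes (rows) at 6, 12, and 24 h in females and males (columns), with a star where the ratio was called by limma. CL3639 and the MYB13 gene CL2555 are starred with positive values in all 6 columns, and Unigene69581, listed at 0 at 24 h, with negative values.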

How the data were processed

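Root RNA was sequenced by the authors in 24 libraries (8 groups of 3), assembled with Trinity, and clustered into contigs and single unigenes. The deposited table gives FPKM, as computed by the authors, although the methods name RPKM. Aligner, quantifier, and test software: not given in the sources used here. Columns were assigned by their labels, and none was left out.

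Contigs of 1 cluster were summed to a gene. Genes (95202) or rows (181249) that reached 1 FPKM in 3 or more libraries entered a linear model of log2(FPKM + 0.5) on the 8 group means, without further scaling (limma 3.58.1 with a trended eBayes prior, R 4.3.3). Benjamini-Hochberg adjustment ran over all features of a comparison, and a call needed an adjusted p no higher than 0.05 and a change of 1 or more on the log2 scale. The test was tried on simulated data. Shares and group means were computed with Python 3.11.15, pandas 2.3.3, and numpy 2.4.6, and plots with matplotlib 3.10.9.

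Named were the WRKY33 genes, contigs with at least 5% of CL3639 in a group mean, 10 defence-annotated genes, the most similar genes, and *SlActin*. These members and lists were chosen with earlier results of these data known. Alternatives were other pseudocounts, no filter, median-ratio scaling, an FDR of 0.01, fits on the compared groups, a block for the replicate number, leaving out single replicates, ratios relative to *SlActin*, and the most abundant contig alone. The shared composition, the fit without male 6 h, and that with each other group as 1 sample were chosen after seeing the data. Relative depth, estimated from steps of low values of 9116 unigenes, was 0.907 to 1.06, but the method cannot show large differences.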

Additional observations from a re-analysis of the deposited data

Results flagged for a closer look

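The difference of the NaCl response between female and male roots passed the test for both WRKY33 genes at each time. The female response minus the male response of CL3639 was -1.08 at 6 h, -2.20 at 12 h, and -1.16 at 24 h on the log2 scale (adjusted p = 0.0154, 3.51e-05, and 0.0125 from limma), in comparisons where 47.3%, 48.5%, and 36.5% of all tested genes were called. At 6 h, it was -0.55 without male 6 h replicate 1, below the required size, and had an adjusted p of 0.0864 from limma in the fit on the 4 groups concerned. Relative to *SlActin*, it was 0.76 at 12 h and 1.09 at 24 h, of the opposite sign. For Unigene26361, it was -2.56, -6.41, and -5.16 (adjusted p = 0.00425, 2.31e-07, and 5.49e-06 from limma). Female libraries of 12 and 24 h were all below, and male libraries of these times all above, the control libraries of their sex for Unigene26361. The sexes may be 2 individual plants, and what the differences come from was not tested.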

How the results depend on the processing

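In another fit, each group but male 6 h counted as 1 sample, and male 6 h alone gave the spread. Its log2 ratios equal those of the main fit by construction (CL3639 at 6 h: 4.41 in females, 5.49 in males), so they check nothing. With so few libraries behind its spread, that fit cannot decide whether a ratio passes. The calls given above thus rest on the libraries of a group counting as replicates. The next counts leave that fit out. Of 554 alternative values of the WRKY33 genes, 512 kept their direction and their side of the threshold, and 15 of 34 results did so under each alternative. Of 95 alternative values of the response of CL3639 to NaCl, 94 did, and contig 32 alone was at -3.84 in females at 6 h. With contig 32 alone, the response difference between sexes was -0.69 at 12 h and -0.77 at 24 h, female minus male was 0.43 in control, -9.42 at 6 h, and -0.26 at 12 h, and the steps were 8.57 (female 12 minus 6 h), -0.59 (male 12 minus 6 h), and 0.86 (male 24 minus 12 h).

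Relative to *SlActin*, CL3639 had response differences of -0.35, 0.76, and 1.09 at 6, 12, and 24 h, female minus male of -1.80, -2.15, and -1.04 in control, 6 h, and 12 h, and steps of 0.84 and 2.62 in females and -0.27 and 2.29 in males. Unigene26361 had female ratios of -0.77 and 0.34 at 12 and 24 h, a response difference of -2.27 at 6 h, female minus male of 0.12 in control and -2.15 at 6 h, and male steps of -0.52 and 1.32. The cause was not tested.

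With median-ratio scaling, the median log2 ratio of all genes moved from -0.30 to -0.07 in females at 24 h and from 0 to 0.13 and 0.15 in males at 6 and 12 h, and that of the response difference from 0.25 to 0.01, -0.13 to -0.42, and -0.02 to -0.25. All genes called higher and lower then numbered 11494 and 13718 in females at 24 h (8575 and 21509 unscaled), 13828 and 8817, 29725 and 14208, and 18688 and 14505 in males (12532 and 16351, 24187 and 23314, and 11503 and 26476), and for the response difference 12671 and 30417 at 12 h (19878 and 26300) and 11262 and 20671 at 24 h (17846 and 16913). CL3639 had -0.038 for female minus male at 6 h, 1.19 for female 24 minus 12 h, 1.01 for male 12 minus 6 h, and 0.17 for male 24 minus 12 h. The ratios of CL13878 were 0.13 and 0.31 in females at 12 and 24 h, that of CL1315 was 0.034 in females at 12 h, and those of CL4774 were 0.42 and 0.67 in males at 12 and 24 h. Of the defence list, 5 were then higher in females at 24 h and 1 lower in males at 6 h, as was 1 in the fit on the compared groups.

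The 6 h response difference of CL3639 (-1.08) missed the threshold in the fit on the compared groups and, with that at 24 h (-1.16), at an FDR of 0.01. The step of Unigene26361 from 12 to 24 h in males was called with a pseudocount of 1 (-1.01), in the fit on the compared groups (-1.08), and without male 6 h (-1.08, adjusted p = 0.0487 from limma).

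Of 240 values of the WRKY33 genes with a replicate left out, 234 were unchanged in call and direction. The others belonged to these ranges: -1.39 to -0.55 (CL3639, response difference at 6 h), -0.27 to 0.57 (CL3639, female minus male at 6 h), 0.31 to 1.16 (CL3639, male 12 minus 6 h), -0.45 to 0.39 (Unigene26361, female minus male at 6 h), and -0.13 to 0.41 (Unigene26361, female 24 minus 12 h). Leaving out each male 6 h replicate gave male 6 h ratios of -0.23 to 0.53 for CL5193 and -1.03 to 0.079 for CL4774, and 1 to 3 defence genes called lower. The share of all tested genes called lower was then 16.4% to 18.9%. Deviations of libraries with the same replicate number correlated at -0.0148 to 0.0212, so the numbers did not pair the samples, and the replicate block changed no call (CL3639 at 4.41 in females at 6 h with the block). Depth is unknown, and ratios of Unigene26361, near the pseudocount in 3 groups, are the least precise.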
